A study of Mus musculus with 10 samples.

Results

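The keratin genes of the mouse were taken as all protein-coding genes of the RefSeq annotation of build mm10 whose symbol is Krt followed by a number, which left out Krtap and Krtcap genes and gave 53 of 21887 protein-coding genes. Of these, 27 lie on chromosome 11 and 26 on chromosome 15. They were set apart by where the proteins are known to be made: 6 keratins of simple epithelia, 3 of the basal layer of stratified epithelia, 17 suprabasal or stress-inducible keratins, 24 hair keratins (16 of the hair shaft and 8 of the inner root sheath and companion layer) and 3 left unclassified (Krt42, Krt90 and Krt222). Each gene was read in a window of its annotated span with 5 kb on each side. Of the 53 windows, 41 overlap the window of another keratin gene, so neighbours share regions and their counts are not independent.

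Open chromatin had been profiled by ATAC-seq, in which a transposase cuts accessible DNA and tags it for sequencing, in sorted thymic epithelial cells (TEC), the cells that form the scaffold of the thymus and guide the maturation of T cells. All mice were C57BL/6 with a wild type genotype, and no treatment is given. The 10 libraries form 5 groups of 2. E15 and E17 stand for embryonic days 15 and 17, and mTEC4, mTEC1 and mTEC2 are 3 groups at day 6. No sorted fraction is named for the embryonic groups, so effects of age and of fraction on the contrast of 4 embryonic with 6 day 6 libraries cannot be told apart. Nothing in the labels says that the replicates came from separate animals, so p-values measure only the spread between these libraries, which may be technical.

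Keratins are the intermediate filament proteins of epithelial cells. A filament is built from pairs of an acidic type I keratin, encoded on chromosome 11, and a basic type II keratin, encoded on chromosome 15, with the type I gene Krt18 as the exception that lies beside its partner Krt8 in the type II cluster. In the thymus, Krt8 and Krt18 are classical markers of cortical TEC, whereas Krt5 and Krt14 mark much of the medulla, and keratins of cornified epithelium such as Krt1 and Krt10 mark late medullary cells and Hassall's corpuscles.

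Promoter sequence from 250 bases before to 50 after the start (300 bases) was at hand from RefSeq (GRCm38.p6, the build also called mm10) for 36 of the 53 genes, with 37 starts in all because Krt13 has 2. The members without an entry are Krt1, Krt4, Krt6a, Krt6b, Krt15, Krt16, Krt17, Krt19, Krt33a, Krt35, Krt80, Krt81, Krt83, Krt86, Krt87, Krt88 and Krt222. Shown are the promoters of the partners Krt8 and Krt18, of the simple keratin Krt7, of the basal partners Krt5 and Krt14 and of the suprabasal Krt10, since called peaks fall on these starts in 10, 7, 7, 0, 5 and 0 of the 10 libraries. Each runs 5′ to 3′ on the strand of its gene, and capitals mark matches, on either strand, to any of the 6 motifs searched.
Krt8: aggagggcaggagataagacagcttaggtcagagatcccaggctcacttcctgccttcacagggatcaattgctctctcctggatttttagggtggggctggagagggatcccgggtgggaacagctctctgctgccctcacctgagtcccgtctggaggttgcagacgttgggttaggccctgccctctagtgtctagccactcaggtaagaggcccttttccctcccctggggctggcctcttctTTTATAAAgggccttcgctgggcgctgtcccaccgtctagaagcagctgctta
Krt18: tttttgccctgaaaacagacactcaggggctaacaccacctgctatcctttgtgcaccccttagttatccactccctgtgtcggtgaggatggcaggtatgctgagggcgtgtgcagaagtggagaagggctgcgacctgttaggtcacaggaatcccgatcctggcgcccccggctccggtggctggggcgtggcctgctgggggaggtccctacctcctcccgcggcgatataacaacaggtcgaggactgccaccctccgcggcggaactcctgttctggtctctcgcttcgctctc
Krt7: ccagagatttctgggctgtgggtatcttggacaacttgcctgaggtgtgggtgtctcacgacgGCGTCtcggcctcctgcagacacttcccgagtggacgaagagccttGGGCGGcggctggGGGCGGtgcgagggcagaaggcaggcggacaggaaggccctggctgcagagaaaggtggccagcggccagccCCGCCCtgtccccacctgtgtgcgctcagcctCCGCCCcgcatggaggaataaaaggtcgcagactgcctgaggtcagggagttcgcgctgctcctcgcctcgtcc
Krt5: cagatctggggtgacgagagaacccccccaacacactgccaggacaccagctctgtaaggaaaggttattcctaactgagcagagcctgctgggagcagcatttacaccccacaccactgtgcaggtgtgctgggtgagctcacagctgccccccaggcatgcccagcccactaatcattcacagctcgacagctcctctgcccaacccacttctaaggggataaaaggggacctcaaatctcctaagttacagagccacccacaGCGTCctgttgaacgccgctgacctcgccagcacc
Krt14: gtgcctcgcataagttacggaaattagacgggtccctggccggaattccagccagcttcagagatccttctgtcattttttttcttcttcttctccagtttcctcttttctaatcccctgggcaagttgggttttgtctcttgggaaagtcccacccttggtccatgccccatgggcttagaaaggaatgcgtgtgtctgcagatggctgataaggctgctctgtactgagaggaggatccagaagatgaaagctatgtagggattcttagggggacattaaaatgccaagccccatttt
Krt10: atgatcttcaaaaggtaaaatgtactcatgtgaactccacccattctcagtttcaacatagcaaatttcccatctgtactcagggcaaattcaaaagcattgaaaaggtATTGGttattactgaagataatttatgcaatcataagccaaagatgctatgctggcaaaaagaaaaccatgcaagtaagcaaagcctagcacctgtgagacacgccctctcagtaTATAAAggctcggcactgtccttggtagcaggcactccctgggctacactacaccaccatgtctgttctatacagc
These windows lie at chr15:102004293-102004592 (minus strand), chr15:102027966-102028265 (plus strand), chr15:101412153-101412452 (plus strand), chr15:101712856-101713155 (minus strand), chr11:100205981-100206280 (minus strand) and chr11:99389315-99389614 (minus strand).

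The motifs searched were the TATA box TATAAA, the GC box GGGCGG, the CCAAT box CCAAT, the FOXN1 core GACGC, the AP-1 site TGANTCA and the GRHL site AACCNGGTT, on both strands and with overlaps allowed. TATAAA was present in 19 of 37 keratin promoters (51.4%) and in 12.6% of all 21263 promoters of the table. GGGCGG was present in 2 (5.41%), those of Krt7 and Krt75, and in 46.2% of all promoters. The Krt10 promoter holds TATAAA from position -26 to -21, counted from the start as 0, whereas in the Krt8 promoter the 2 overlapping matches lie on the start itself, from -3 to 4. The Krt7 promoter holds 4 GC boxes. CCAAT was found in 15 (40.5%) against 38.2% of all promoters, and GACGC, the short core described for FOXN1, the master regulator of TEC, in 7 (18.9%) against 33.4%. TGANTCA occurred only at both starts of Krt13 among the keratins (5.41%, against 6.99% of all promoters), and AACCNGGTT in 0 of 37 (0.254% of all). The keratin promoters had a median GC content of 48.7%, below the median of 56.3% over all promoters.

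The deposited lists hold 882163 peaks, from 40858 in mTEC2 replicate 2 to 151646 in E17 replicate 2, and merge into 350685 regions, of which 164 touch a keratin window. Embryonic lists were longer (86237 to 151646 peaks) than most day 6 lists (40858 to 101917) and held a larger share of strong peaks: a −log10 q of at least 5 was reached by 41.6% to 48.7% of embryonic and by 6.25% to 14.2% of day 6 peaks. Read depth is unknown, since no counts come with the peaks, and absence from a list is not evidence of closed chromatin. In bulk sorted samples fewer cells of a kind and less open chromatin per cell cannot be told apart. Of 14 genes marking thymic epithelium, all 14 had a region in each embryonic library and 12 to 14 in each day 6 library. They summed to 62 to 97 regions (embryonic) and 19 to 55 (day 6), without overlap. Over all protein-coding genes the mean was 3.62 regions per gene in embryonic and 1.99 in day 6 libraries. The 10 thymocyte genes summed to 24 to 42 regions (embryonic) and 13 to 46 (day 6), with 7 to 9 and 7 to 10 of them marked. The 7 macrophage and dendritic cell genes summed to 6 to 11 and 9 to 17, with Lyz2 and Csf1r at 0 in every embryonic library. The 10 cornified envelope genes of keratinocytes summed to 14 to 27 and 4 to 14, with Sprr1b at 0 in every library. The 7 mesenchyme genes summed to 18 to 27 regions (embryonic) and 5 to 12 (day 6), without overlap, as was so for the thymic epithelium genes. The 5 endothelial genes summed to 13 to 24 and 9 to 21, and the 4 erythroid genes to 3 in each embryonic library and 0 to 3 at day 6. What part these other cell types have in the keratin regions was not tested.

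Across the clusters the embryonic libraries had more called keratin regions than any day 6 library. E15 had 78 and 71 distinct regions in the keratin windows and E17 had 69 and 109. At day 6 the counts were 15 and 26 in mTEC4, 22 and 28 in mTEC1, and 43 and 23 in mTEC2. The ages did not overlap, with 81.8 ± 18.6 (SD, n = 4) against 26.2 ± 9.37 (SD, n = 6) regions. Embryonic libraries had a region in 36 to 47 of the 53 genes (67.9% to 88.7%) and day 6 libraries in 12 to 32 (22.6% to 60.4%). Of all protein-coding genes, 79.8% to 84.2% had a region in embryonic and 68.0% to 81.8% in day 6 libraries.

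Relative to other genes, too, the embryonic libraries had more regions in the keratin windows, by a margin that shrank when lists were cut to 1 length. Per base, keratin windows held 1.54 to 1.70 times the region density of all protein-coding gene windows in the embryonic libraries (1.62 ± 0.0646, SD, n = 4). In the day 6 libraries this ratio was 0.662 and 0.967 in mTEC4, 0.845 and 0.975 in mTEC1, and 1.04 and 1.25 in mTEC2 (0.957 ± 0.197, SD, n = 6). The ages did not overlap on this ratio. With every list cut to the length of the shortest, 40858 peaks taken by −log10 q, the ratio ranged from 1.07 to 1.21 across embryonic and from 0.666 to 1.25 across day 6 libraries, which overlapped through mTEC2 replicate 2. Keratin regions then ranged from 22 to 25 (embryonic) and from 10 to 23 (day 6).

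**Figure D1:**
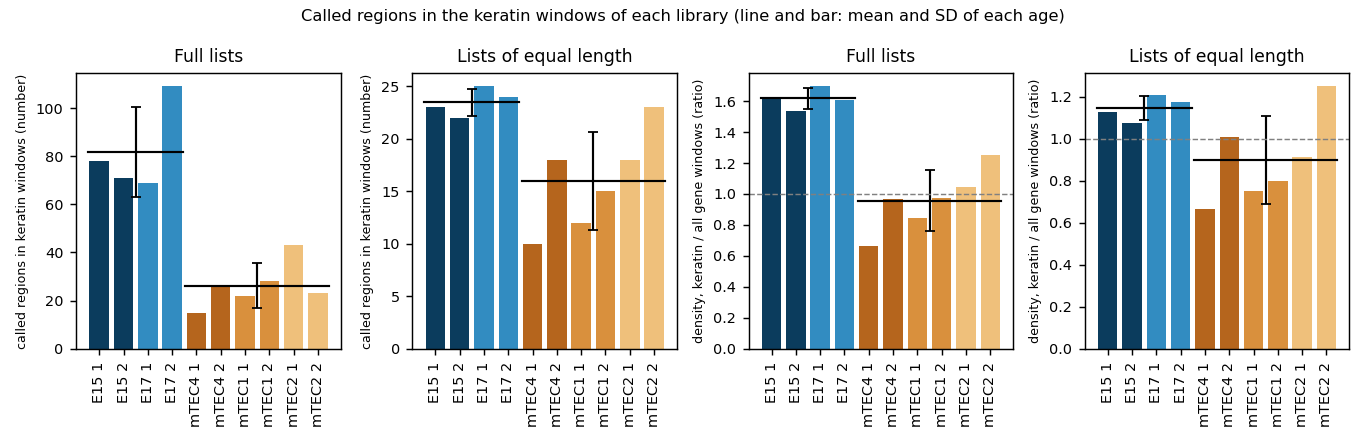
Bars give, for each library, the number of called regions in the keratin windows and the ratio of region density in keratin windows to that in all gene windows, for the full lists and for lists of equal length, with lines and error bars for the mean and SD of the 4 embryonic and 6 day 6 libraries. In the full lists every embryonic library is above every day 6 library on both measures. At equal length mTEC2 replicate 2, the shortest list and so left uncut, is within the embryonic range on the count and above it on the ratio.

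Keratin peaks also had a higher −log10 q and were wider in the embryonic lists, as was so for peaks in general. These values were not adjusted for read depth, which is unknown. The 4 embryonic libraries held 26, 25, 28 and 49 keratin peaks at or above a −log10 q of 5, and the day 6 libraries held 0 and 1 (mTEC4), 1 and 2 (mTEC1), and 2 and 0 (mTEC2). As a share of keratin peaks this is a mean of 38.3% ± 5.25 (SD, n = 4) against 3.36% ± 2.84 (SD, n = 6), beside 44.9% and 10.6% of all peaks. The median keratin peak was 181 to 225 bp wide before birth and 87.0 to 153.5 bp at day 6.

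**Figure D2:**
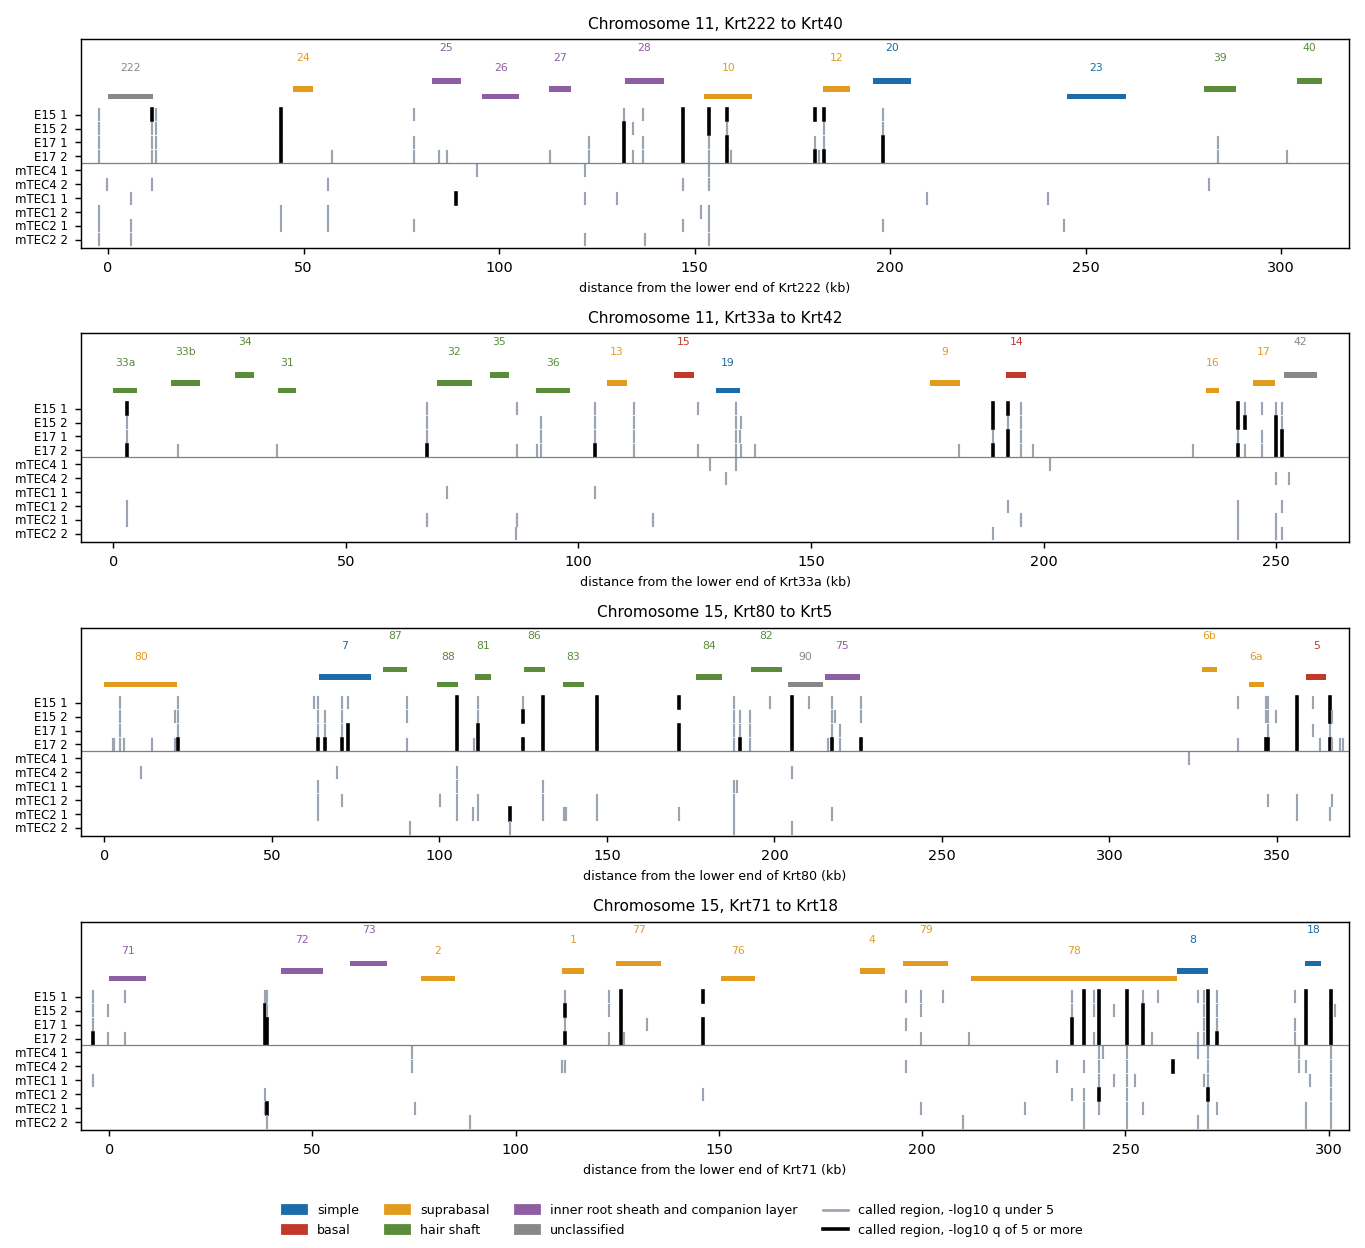
Maps of the keratin genes on chromosomes 11 and 15 (bars, coloured by class, numbers are the Krt numbers) with the called regions of each library as ticks, against distance in kb from the lower end of the leftmost gene, with black ticks for a −log10 q of at least 5. The embryonic libraries share columns of strong regions, whereas day 6 ticks are sparse except around Krt78, Krt8 and Krt18.

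Gene by gene, 12 keratin genes had significantly more called regions in the embryonic than in the day 6 libraries: Krt7 and Krt8 (simple), Krt14 (basal), Krt12, Krt13, Krt17, Krt77 and Krt80 (suprabasal), Krt82 (hair shaft), Krt28 and Krt75 (root sheath and companion layer) and Krt90. These are 12 of the 51 genes with a region in any list (23.5%), beside 12.8% of the 20190 protein-coding genes tested. None of the 51 had significantly fewer, beside 0.0842% of all genes. At an unadjusted p under 0.05, 22 keratin genes were higher (43.1%) and 0 lower, beside 36.7% and 0.788% of all genes. Each of the 12 reached p = 0.00476, the smallest that the exact two-sided permutation test over 210 arrangements of the libraries can give, and an adjusted p of 0.0370 (Benjamini-Hochberg over all genes tested). In 14 of the 51 every embryonic library was above every day 6 library, beside 14.8% of all genes.

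The median difference over the 51 genes was 0.75 regions, against 0.917 over all genes tested, whose spans are longer (median 7.07 kb for keratin genes, 17.2 kb for all). The calls rest on the full lists and on all 10 libraries. Without mTEC2 replicate 1 the count was 11, and without any other single library it was 0, as it was over all genes; each such test has fewer arrangements and so a larger smallest p. With lists of equal length 0 of 38 keratin genes were called and 0 genes elsewhere, with 3 keratin genes higher at an unadjusted p under 0.05 (Krt14, Krt28 and Krt83; 7.89%, beside 10.3% of all genes), and the median difference was 0.0833 over the keratin genes and 0.0833 over all genes. Of the 47 keratin genes with a positive difference in the full lists, 21 were positive, 13 at 0 and 13 negative at equal length, so that 27.7% turned negative, beside 4216 of 15630 among all genes. Among the 12 called genes, 6 were at 0 or below (Krt7, Krt8, Krt13, Krt75, Krt80 and Krt82), beside 473 of the 2581 genes called higher over all genes. So a larger share of the keratin calls than of all calls lost its direction at equal length, which was not tested.

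**Figure D3:**
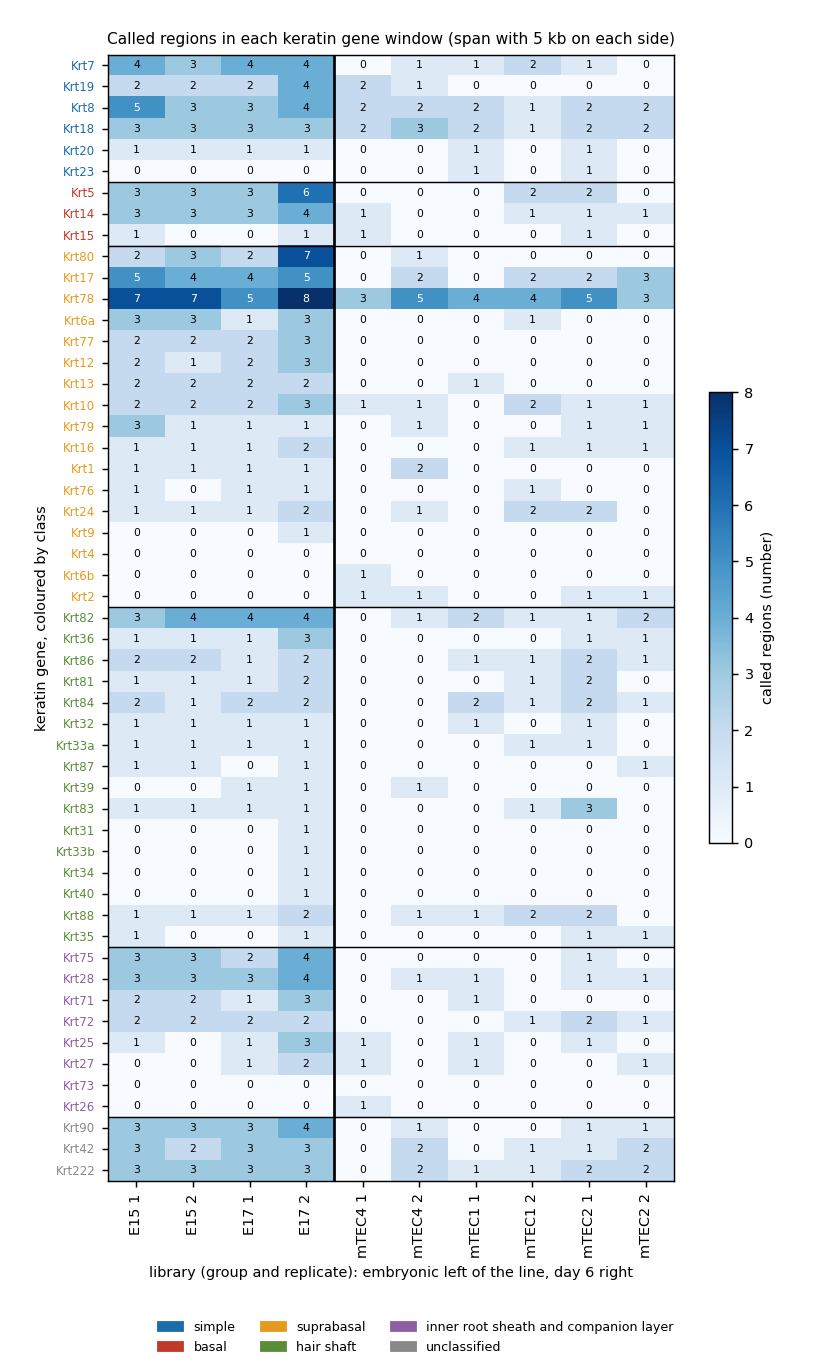
Number of called regions in the window of each of the 53 keratin genes (rows, coloured and grouped by class) in each library (columns), with embryonic libraries left of the line. Embryonic columns are darker in nearly all classes, Krt8, Krt18 and Krt78 keep at least 1 region in every library, and the hair shaft rows are the palest.

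Among the simple keratins, Krt8 and Krt18 were marked in every library. Krt8, the type II keratin of simple epithelia, had 5 and 3 regions in E15 and 3 and 4 in E17, against 2 and 2 in mTEC4, 2 and 1 in mTEC1 and 2 and 2 in mTEC2. All embryonic libraries were above all day 6 libraries, a difference of 1.92 regions (adjusted p = 0.0370, exact permutation test). With lists of equal length the difference was -0.50, so the direction is not kept. Krt18, its type I partner, had 3 regions in each embryonic library and 2, 3, 2, 1, 2 and 2 at day 6, where the values overlap (difference 1 region, adjusted p = 0.121 by the exact permutation test). Relative to the mean of each library its difference was -0.21.

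The region on the Krt8 start was the strongest keratin region of each embryonic library. At chr15:102003852-102004562 it runs from inside the gene across the start and most of the promoter printed above. Its −log10 q, a value of the authors' caller that ranks peaks within a list, was 23.2, 24.9, 27.7 and 44.6 in the embryonic libraries, and it stood among the top 2.5% of each embryonic list. At day 6 it was 2.73 and 2.30 (mTEC4), 3.12 and 5.26 (mTEC1), and 4.81 and 2.91 (mTEC2), at ranks from the top 10.7% to the top 33.9%. The Krt18 start at chr15:102028022-102028543 was called in all 4 embryonic libraries (at 6.84 or more) and in 3 day 6 libraries, mTEC4 replicate 2 (3.84) and both of mTEC2 (2.08 and 3.23). Another region of the pair, chr15:102033928-102035160, 6.33 kb downstream of the Krt18 start and 1902 bp beyond its span, was called in all 10 libraries, with a −log10 q from 6.20 to 12.4 before birth and from 1.35 to 2.81 at day 6. The nearest gene outside the family, Eif4b, is 38613 bp away.

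Krt7, a simple keratin of ducts and glands, had 4, 3, 4 and 4 regions in the embryonic libraries, and 0 and 1 (mTEC4), 1 and 2 (mTEC1), and 1 and 0 (mTEC2) at day 6. The groups did not overlap (difference 2.92, adjusted p = 0.0370, exact permutation test), yet with lists of equal length the difference was -0.0833. Its start region, chr15:101411822-101412579, was present in all 4 embryonic libraries and, at day 6, in mTEC1 replicates 1 and 2 and mTEC2 replicate 1.

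Krt19, the smallest keratin and one of early and progenitor-like epithelium, had 2, 2, 2 and 4 regions in embryonic libraries, 2 and 1 in mTEC4, and 0 in all 4 mTEC1 and mTEC2 libraries. The ages overlapped through mTEC4 (adjusted p = 0.0896, exact permutation test), and at equal length the difference was -0.167. Krt20, a keratin of gut epithelium, had 1 region in each embryonic library and in 2 of 6 day 6 libraries (adjusted p = 0.172, exact permutation test). Krt23 had no region in an embryonic list and 1 each in mTEC1 replicate 1 and mTEC2 replicate 1. In all, 2 of 6 simple keratins were called higher and 0 lower, beside 12.8% and 0.0842% of all genes tested.

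In the basal class, Krt14 was called and Krt5 narrowly was not. Krt14, the type I keratin of basal cells, had 3, 3, 3 and 4 regions in embryonic libraries, and 1 and 0 (mTEC4), 0 and 1 (mTEC1), and 1 and 1 (mTEC2) at day 6. The values did not overlap (difference 2.58, adjusted p = 0.0370, exact permutation test), and at equal length the difference was 1.17 (adjusted p = 0.378). Its partner Krt5 had 3, 3, 3 and 6 regions in embryonic libraries, and 2 in mTEC1 replicate 2 and in mTEC2 replicate 1 but 0 in the other 4 day 6 libraries. Embryonic libraries were all above day 6 libraries (difference 3.08), but the adjusted p was 0.0555 by the exact permutation test. Krt15, a keratin of basal stem cells in skin, had 1 region in 2 embryonic and 2 day 6 libraries and 0 in the others.

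Neither basal partner had a strong peak on its start. The strongest Krt5 region, chr15:101704073-101704359, lies 8.69 kb downstream of the start, past the end of the gene, with a −log10 q of 9.04, 5.23, 18.2 and 28.7 in the embryonic libraries and 1.30 and 2.15 in mTEC1 replicate 2 and mTEC2 replicate 1. A region 1.09 kb upstream of the start, chr15:101713796-101714184, was called in all embryonic libraries (3.65 to 8.45) and in mTEC2 replicate 1 (2.66), and the Krt5 promoter window itself held no peak in any list. At Krt14 the region on the start, chr11:100205976-100206608, was weak (2.90 to 3.88 in embryonic libraries, 1.08 in mTEC2 replicate 1). The tabulated start of Krt14 lies 1480 bp inside its annotated span, and no region overlaps the 5′ end of that span. Stronger regions lay 2.39 kb downstream, near the end of the gene (chr11:100203535-100203741, up to 20.2), and 5.76 kb downstream (chr11:100200170-100200369, up to 14.0). Each of these 3 regions was called in all embryonic libraries and in 1 day 6 library, a different library for each.

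**Figure D4:**
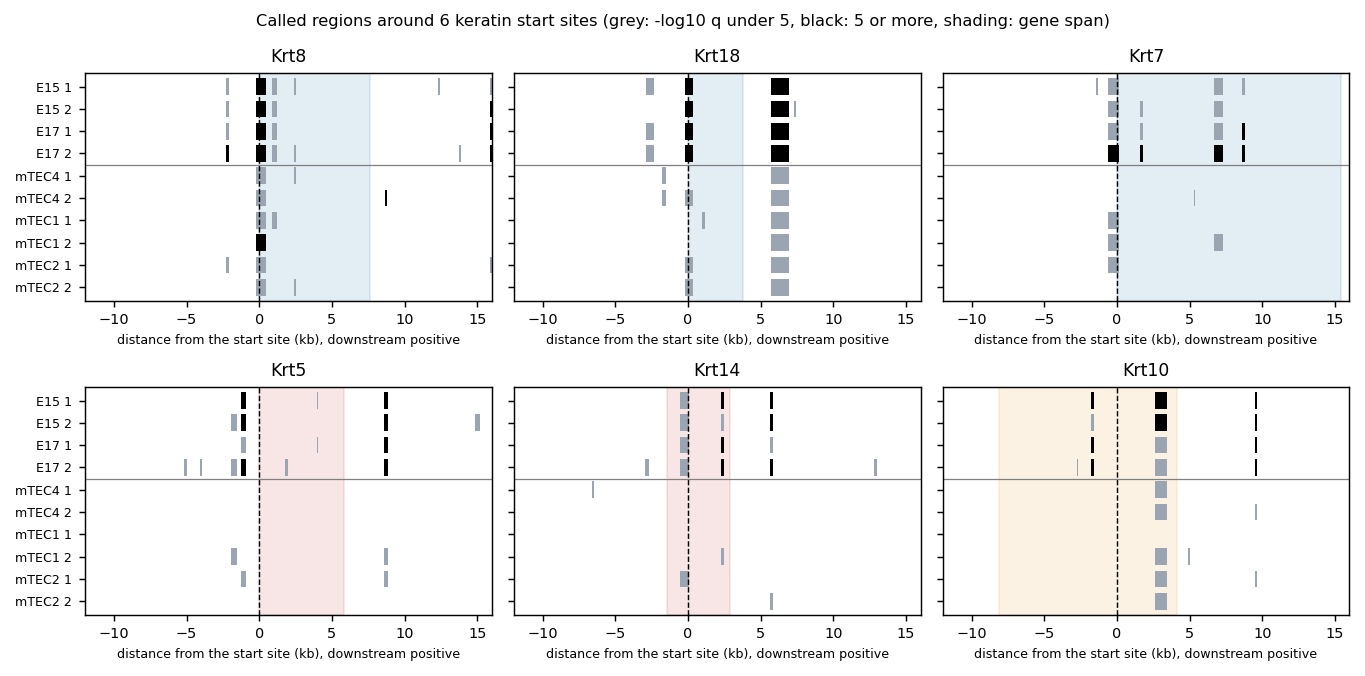
Called regions around the starts of Krt8, Krt18, Krt7, Krt5, Krt14 and Krt10, against distance from the start in kb in the direction of transcription, drawn at the extent of the merged region, in black where the peak of that library has a −log10 q of at least 5. The Krt8 start is marked in all 10 libraries, whereas the strongest Krt5 and Krt14 regions lie downstream of the starts and are mostly embryonic.

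Of 16 suprabasal keratins tested, 5 were called higher and 0 lower in embryonic libraries, beside 12.8% and 0.0842% of all genes tested. Krt17, a stress-inducible type I keratin of embryonic and appendage epithelium, had 5, 4, 4 and 5 regions, against 0 and 2 (mTEC4), 0 and 2 (mTEC1), and 2 and 3 (mTEC2), without overlap (difference 3 regions, adjusted p = 0.0370, exact permutation test). At equal length its difference was 0.50. Krt80, a type II keratin found in many epithelia, had 2, 3, 2 and 7 regions against 1 in mTEC4 replicate 2 and 0 in the other 5 day 6 libraries (difference 3.33, same adjusted p), and at equal length it had no region in any library. Krt12 and Krt77 had at least 1 region in each embryonic library (2, 1, 2 and 3 for Krt12, the keratin of corneal epithelium, and 2, 2, 2 and 3 for Krt77) and 0 in all 6 day 6 libraries. Krt13, the type I keratin of mucosal suprabasal cells, had 2 in each embryonic library and 1 region at day 6, in mTEC1 replicate 1, and at equal length none in any library. The differences of Krt12 and Krt77 at equal length were 0.75 and 0.25.

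The keratins of cornifying epidermis did not pass the test. Krt10 had 2, 2, 2 and 3 regions in embryonic libraries and 1, 1, 0, 2, 1 and 1 at day 6, where the values overlap (difference 1.25, adjusted p = 0.111, exact permutation test). Krt1, its partner, had 1 region in each embryonic library, 2 in mTEC4 replicate 2 and 0 in the other day 6 libraries (adjusted p = 0.340, exact permutation test). Krt2, a late epidermal keratin, was the only suprabasal gene besides Krt6b with a lower mean in embryonic libraries, with 0 there and 1 region in 4 of 6 day 6 libraries (difference -0.667, adjusted p = 0.172, exact permutation test). Krt6a, the wound-induced keratin, had 3, 3, 1 and 3 regions against 1 in mTEC1 replicate 2 and 0 in the others (adjusted p = 0.0555, exact permutation test). Its near copy Krt6b had 1 region, in mTEC4 replicate 1. The sources used here do not say how reads matching both copies were placed, so the split between Krt6a and Krt6b is uncertain, as is that between Krt33a and Krt33b. Krt4 had no called region in any list.

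Within Krt10, 2 regions behaved differently across the ages. The region inside the gene 3.05 kb downstream of the start, chr11:99385914-99386712, was called in 9 of 10 libraries, missing in mTEC1 replicate 1, with a −log10 q from 2.36 to 8.05 before birth and from 1.82 to 2.52 at day 6. The region 1.70 kb upstream of the start, chr11:99390962-99391170, was called in all 4 embryonic libraries at 5.73, 3.27, 7.49 and 15.0 and in no day 6 library. The promoter between them held no peak in any list. The tabulated start of Krt10 lies 8085 bp inside its annotated span, whose 5′ end overlaps no region either.

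Krt78, the gene with the widest keratin span, had the most regions of any keratin gene in every library, level with Krt17 in mTEC2 replicate 2. It held 7, 7, 5 and 8 regions in embryonic and 3, 5, 4, 4, 5 and 3 in day 6 libraries (difference 2.75, adjusted p = 0.0703, exact permutation test), and relative to the library means the difference was -0.162. Its annotated span of 50624 bp ends next to Krt8, and the regions called in most libraries lie between the tabulated start of Krt78 and Krt8. One of them, chr15:101984041-101984626, far upstream of that start, was called in all 10 libraries, with a −log10 q from 10.2 to 25.1 before birth and from 1.89 to 4.92 at day 6. Another, chr15:101977372-101977681, was called in 9, all but mTEC2 replicate 2. Which gene these regions belong to was not tested.

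Hair keratins together had the fewest regions per gene at both ages, a mean of 1.22 in embryonic and 0.403 in day 6 libraries. Of 16 hair shaft keratins 1 was called higher, Krt82, and of 7 tested root sheath and companion layer keratins 2 were, Krt28 and Krt75, so 3 of 23 in all, beside the 12.8% of all genes. Hair shaft windows had a mean of 1.06 regions per gene in embryonic and 0.427 in day 6 libraries, against 2.33 and 0.972 for simple keratins, 2.50 and 0.556 for basal and 1.87 and 0.598 for suprabasal keratins. Krt82 had 3, 4, 4 and 4 regions in embryonic libraries and 0, 1, 2, 1, 1 and 2 at day 6 (difference 2.58, adjusted p = 0.0370, exact permutation test), and at equal length the difference was 0.00. Krt31, Krt33b, Krt34 and Krt40 each had 1 region, in E17 replicate 2, the longest list, and 0 in the other 9 libraries.

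Krt28, an inner root sheath keratin, had 3, 3, 3 and 4 regions in embryonic libraries and 0, 1, 1, 0, 1 and 1 at day 6 (difference 2.58, adjusted p = 0.0370, exact permutation test), and at equal length the difference was 1.25. Krt75, the companion layer keratin, had 3, 3, 2 and 4 regions and 1 region at day 6, in mTEC2 replicate 1 (difference 2.83, same adjusted p), and at equal length it had no region in any library. Krt26 had 1 region, in mTEC4 replicate 1, and Krt73 none in any list. Not all hair keratin windows were empty at day 6: a region in Krt88, chr15:101453406-101453646, was called in all embryonic libraries (13.9 to 21.8) and in 4 day 6 libraries (1.71 to 4.16), and 1 in Krt86, chr15:101479187-101479613, in all embryonic (8.34 to 20.4) and 3 day 6 libraries (1.65 to 3.45).

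Of the unclassified genes Krt90, next to Krt75, was called, with 3, 3, 3 and 4 regions in embryonic libraries against 0, 1, 0, 0, 1 and 1 (difference 2.75, adjusted p = 0.0370, exact permutation test), and a difference of 0.667 at equal length. Krt222 had 3 regions in each embryonic library and 0, 2, 1, 1, 2 and 2 at day 6, without overlap (adjusted p = 0.0772, exact permutation test), but at equal length the difference was -0.667. Krt42 overlapped between the ages (adjusted p = 0.0772, exact permutation test).

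Region by region, 50 of the 164 keratin regions (30.5%) were called in all 4 embryonic libraries, beside 18.7% of all merged regions and 25.8% of those in gene windows. Those called in all embryonic and no day 6 library numbered 8 (4.88%), beside 4.3% of all merged regions and 5.42% in gene windows. None was called in all day 6 and no embryonic library, beside 0.0442% of all regions. Regions called in all 10 libraries numbered 3 (1.83%), beside 2.75% of all regions and 4.96% in gene windows, and all 3 lie in the Krt78, Krt8 and Krt18 stretch described above. Regions called in 1 library made up 43.9% of keratin regions, 55.1% of all and 48.4% in gene windows. None of these shares was tested.

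The 8 regions of embryonic libraries alone fall in 7 genes, none of them a simple or basal keratin. The highest ranked is beside Krt28 (chr11:99364576-99364704, 303 bp past the end of the span, −log10 q up to 23.9), followed by the Krt10 upstream region. The others are in Krt12 (chr11:99415704-99416071, 4.35 to 8.78), in Krt77 (chr15:101859475-101860134, 5.15 to 6.27), at 2 places in Krt80 (chr15:101352858-101353323 and chr15:101370058-101370734), 1.63 kb upstream of Krt13 (chr11:100123094-100123295) and beside Krt222 (chr11:99244667-99245310). The second Krt80 region crosses the upper end of the annotated span (position 101370162), and Krt80 has no tabulated start. With lists of equal length no keratin region was called in all embryonic and no day 6 library, and 3022 of all regions were. Leaving out a library that was alone in missing or holding a region adds to the count, which was 13 without E15 replicate 2, 15 without E17 replicate 1 and 15 without mTEC2 replicate 1.

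At the starts, keratin genes were seldom marked. Of the 36 genes with a tabulated start, 6 had a peak in the promoter window in any library and 30 (83.3%) had none, against 33.3% of 17492 genes. Krt8 alone was marked in all 10 libraries (2.78%, beside 33.8% of all promoters). Of these 36 genes none was marked in all embryonic and no day 6 library, beside 2.53% of all promoters. Krt18 and Krt7 were marked in 4 embryonic and 3 day 6 libraries each, Krt14 in 4 and 1, Krt75 in 2 embryonic libraries, and Krt9 in E17 replicate 2. No promoter, keratin or other, differed between the ages after adjustment by Fisher's exact test, where the smallest adjusted p over all genes was 0.125. At an unadjusted p under 0.05, 1 of the 6 keratin promoters tested was higher (16.7%; Krt14, p = 0.0476, adjusted p = 0.461, Fisher's exact test). Of all 11663 genes tested, 1198 were higher (10.3%) and 7 lower.

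Of the 6 promoters with a peak, 2 hold a GC box and 1 holds TATAAA, and their median GC content was 57.5%. Of the 31 keratin starts without a peak, 18 hold TATAAA (58.1%) and 0 a GC box, with a median GC content of 47.0%. Over all promoters those without a peak likewise had a lower GC content (46.0% against 60.7% with a peak) and more often held TATAAA (25.2% against 7.30%). These are descriptions of the sequences, and none was tested.

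**Figure D5:**
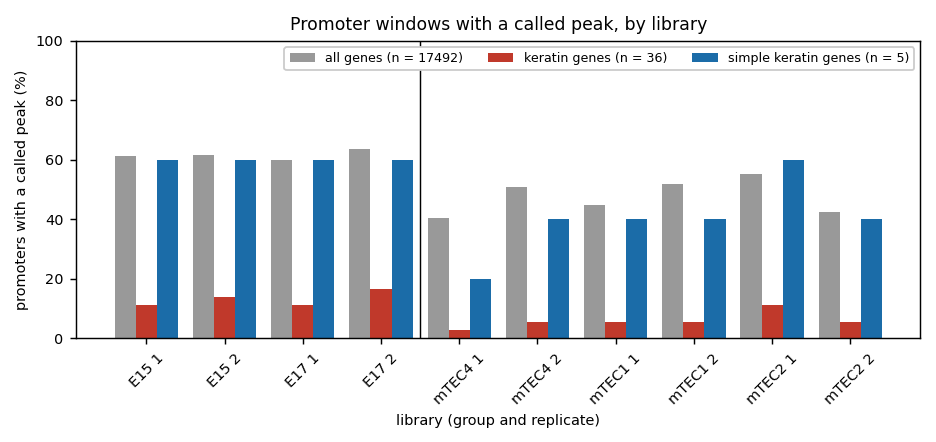
Percent of promoter windows with a called peak in each library, for all genes, keratin genes and simple keratin genes with a tabulated start. Keratin promoters stay between 2.78% and 16.7% in every library, below the 40.4% to 63.7% of all genes, while 60.0% of the 5 simple keratin promoters are marked in each embryonic library.

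Between groups of the same age no keratin gene passed the test, and neither did any other gene (limma on log2 of the region count plus 1, less the library mean). E17 against E15 gave 2 keratin genes at an unadjusted p under 0.05 of 51 (Krt27 and Krt39), beside 262 of 20190 genes. Among the day 6 groups there were 4 for mTEC1 against mTEC4, 6 for mTEC2 against mTEC4 and 6 for mTEC2 against mTEC1, beside 1560, 2240 and 1499 genes. The smallest adjusted p of a keratin gene was that of Krt19, lower in mTEC2 than in mTEC4 by 1.42 on the log2 scale (-1.42 ± 0.36 SE, adjusted p = 0.176, limma). In mTEC1 against mTEC4 the Krt19 value was -1.37 ± 0.36 (SE, adjusted p = 0.306, limma). Its counts were 2 and 1 in mTEC4 and 0 in the other day 6 libraries. Krt86 and Krt84 went the other way in both contrasts, with 0 regions in mTEC4 and 1 to 2 in each mTEC1 and mTEC2 library (Krt86 in mTEC2 against mTEC4, 1.17 ± 0.31, SE, adjusted p = 0.182, limma). The 2 contrasts share the mTEC4 libraries.

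Regions called in both libraries of 1 group and in no other library were few: of the 164 keratin regions 3 for E17 (beside 1.15% of all regions), 2 for mTEC4 (0.794%), 1 for mTEC2 (0.202%) and none for E15 (0.342%) or mTEC1 (0.551%). For E17 they lie beside Krt27 (chr11:99355724-99355897), in Krt39 (chr11:99516493-99516775) and in Krt75 (chr15:101567924-101568035), with a −log10 q of 1.54 to 4.39. For mTEC4 they lie beside Krt2 (chr15:101808253-101808706) and 1.55 kb from the Krt18 span (chr15:102026400-102026668), at 1.27 to 2.08. The mTEC2 region lies beside Krt86 (chr15:101469421-101469652), at 6.23 and 3.34.

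Lists of keratin regulators, filament anchors, other intermediate filament genes and keratin-associated genes were set out with earlier results of these data known. Their median differences lay on both sides of the 0.75 regions of the keratin genes. Of 20 regulators of epithelial keratin genes 4 were called higher and 0 lower, with a median difference of 2.38 regions: Grhl1, Klf4, Klf5 and Msx2. Trp63, encoding the p63 factor needed for basal epithelium and the Krt5 and Krt14 pair, had 22, 18, 15 and 30 regions in embryonic libraries and 1, 4, 4, 11, 14 and 3 at day 6, without overlap (adjusted p = 0.0555, exact permutation test). Foxn1 had 5, 6, 6 and 8 against 0, 0, 1, 5, 3 and 2, which overlap through mTEC1 replicate 2 (adjusted p = 0.0703, exact permutation test).

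Of 16 desmosome and hemidesmosome genes, which anchor keratin filaments to the membrane, 7 were called higher (43.8%) and 0 lower (median 2.63). Desmoplakin, the linker between desmosome and filaments (Dsp), had 7, 6, 7 and 8 regions in embryonic libraries and 2, 2, 2, 3, 4 and 2 at day 6 (adjusted p = 0.0370, exact permutation test). The others were Dst, Pkp1, Pkp2, Itgb4, Ppl and Dsc3. Of 13 other intermediate filament genes 5 were called higher (Des, Nefl, Prph, Nes and Lmna, median 1.42). Of 56 keratin-associated protein genes, taken from all chromosomes, which encode the matrix of the hair shaft, 36 had a region (median 0.25). Among these 36, 1 was called higher (Krtap4-16, with 1 region in each embryonic library and 0 at day 6). Over all genes tested the median was 0.917, and 12.8% were called higher and 0.0842% lower. Counts were not scaled to span length. With lists of equal length the medians were 0.667 for the regulators, 0.625 for desmosome genes, 0.375 for other intermediate filament genes and -0.167 for the keratin-associated genes, whose direction turns, beside 0.0833 over all genes.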

How the data were processed

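ATAC-seq peak lists of 10 libraries of sorted thymic epithelial cells were used, grouped by the sample titles; names within the files give other fractions. Per the labels the lists describe nucleosome-free chromatin, and the tools MACS2, Bowtie2, cutadapt and Picard and the build mm10 are named, per the submitters' processing notes. The sources used here do not give versions, order or any shift of read ends. Each library has its own broad peak list from the authors. Each deposited peak has a score, which the values show to follow the −log10 q and which was not used further. The fold enrichment deposited by the authors is a ratio to the caller's background within a list, and the deposited −log10 p and −log10 q are the caller's too; all were read only within a list, and no −log10 q was below 1.0002. Library size and read depth are unknown.

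Peaks of all lists that overlapped or touched were merged into regions, and a region counted for a library with any overlapping peak. Regions were counted per protein-coding gene of the RefSeq table in the span with 5 kb on each side, by Python 3.11.15 (numpy 2.4.6, pandas 2.3.3). Mean counts of the 4 embryonic and 6 day 6 libraries were compared for every gene with a region in any list by the exact two-sided permutation test over all 210 arrangements, with Benjamini-Hochberg adjustment over 20190 genes and a threshold of 0.05. Groups of the same age were compared with limma 3.58.1 (R 4.3.3, trend, 5 residual degrees of freedom before moderation) on log2 of the count plus 1. Promoter windows were tested with Fisher's exact test. The procedures were tested on simulated data. Same-numbered replicates did not deviate together: the correlations of their deviations from the group means lay between -0.213 and 0.170, with 1 of 10 over 0.1, so the numbers were not taken as pairs.

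The members, classes and lists were chosen with earlier results of these data known. Named genes were 13 set keratins, in each class the member with the most regions, the 10 largest differences, any lower by at least 1 region and those with no region; named regions were, by class, the region called in most libraries, and those called in all libraries, in embryonic libraries alone or in 1 group alone. Krt2, Krt6b, Krt9, Krt12, Krt13, Krt23, Krt26, Krt27, Krt31, Krt33b, Krt34, Krt39, Krt40, Krt42, Krt77, Krt83, Krt84, Krt86, Krt88 and the named pathway genes were named after their values were seen. Alternatives changed list length, peak threshold, window, overlap rule, scaling, test, filter and libraries.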

Additional observations from a re-analysis of the deposited data

Results flagged for a closer look

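In groups of 4 or 6 libraries, 15 of 58 sets of values held a library set apart from the others, more than the 1 in 20 that chance gives for continuous values; small whole-number counts with ties, as here, meet the criterion whenever the other libraries are equal. Of these, 7 concern E17 replicate 2, the longest list. It had 38 regions in hair keratin windows against 22 in each of the other 3 embryonic libraries, 6 at Krt5 against 3, 4 at Krt19 against 2, 3 at Krt10 against 2, and 4 against 3 at each of Krt14, Krt28 and Krt90. Lower embryonic values stood apart at Krt7 (3 regions in E15 replicate 2, 4 in the others), Krt82 (3 in E15 replicate 1, 4 in the others) and Krt6a (1 in E17 replicate 1, 3 in the others). Among day 6 libraries, mTEC4 replicate 2 had 2 regions at Krt1 and 1 at Krt80, mTEC2 replicate 1 had 1 at Krt75, and mTEC1 replicate 2 had 1 at Krt6a, where the others had 0, while mTEC1 replicate 2 had 1 region at Krt8 and the others 2. The cause was not tested.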

How the results depend on the processing

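The count of 12 keratin genes higher in embryonic libraries was 0 with lists cut to the shortest length, 0 with lists cut to 4334 peaks, 0 relative to the library mean, 0 with the replicate block, 6 in spans alone, and 23 both with 10 kb on each side and with a region counted only where at least 0.5 of it is covered. It was 14 at a −log10 q of at least 5, 9 with each region given to the nearest gene and 17 by limma. Where the count was not 0, the share of all genes called under the same setting is not given here. No change particular to keratin genes can therefore be read from these counts. The same holds for the promoter and same-age counts below. Without 1 library it ranged from 0 to 11: it was 11 without mTEC2 replicate 1 and 0 without each other library, as over all genes. Each of these tests, and the test with the replicate block, has fewer arrangements and so a larger smallest p. The count of lower genes was 0 throughout. The difference of 55.6 keratin regions was 7.5 at the shortest length, 31.0 at a −log10 q of at least 5, 1.33 at 4334 peaks, 31.1 in spans alone and 69.7 with 10 kb, and 46.5 to 59.8 without 1 library. Promoters with a peak numbered 3 at the shortest length and 1 at 4334 peaks in place of 6, and 5 to 6 without 1 library. The 1 promoter marked in every library became 0 at a −log10 q of at least 5 and 0 at 4334 peaks, and 1 promoter, that of Krt18, then differed between ages at a −log10 q of at least 5. The 8 regions of embryonic libraries alone became 0 at the shortest length and 1 at 4334 peaks, and 8 to 15 without 1 library (13 without E15 replicate 2, 15 without E17 replicate 1 and 15 without mTEC2 replicate 1). Between groups of the same age, E17 against E15 gave 1 keratin gene at a −log10 q of at least 5 and 1 at 4334 peaks, and without subtraction of the library mean mTEC1 against mTEC4 gave 1 and mTEC2 against mTEC1 gave 1. The pairing by replicate number changed no other count. Positive differences turned negative at the shortest length for 13 of 47 keratin genes: of those named by the rule Krt222 (-0.667), Krt19 (-0.167), Krt7 (-0.0833), Krt6a (-0.167) and Krt8 (-0.50), and also Krt25, Krt32, Krt35, Krt36, Krt79 and Krt87 (-0.167 each), Krt27 (-0.333) and Krt42 (-0.0833). Among genes named by the rule, signs changed too with 0.5 coverage for Krt15 (-0.0833), and relative to the library mean for Krt15 (-0.033), Krt78 (-0.162) and Krt18 (-0.21). The cause was not tested beyond what each alternative does. Without read counts, a weak site and a shallow library cannot be told apart.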
